A study of Mus musculus with 6 samples.

Results

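Wnt ligands, Frizzled receptors, bone morphogenetic protein (BMP) genes and fibroblast growth factor (FGF) genes were followed in the substantia nigra of mice under intermittent fasting or ad libitum feeding. The members were all rows of the deposited count table whose symbol begins with Wnt, Fzd, Bmp or Fgf and a digit, which gave 52 of 19251 genes. There were 16 Wnt genes, 11 Frizzled genes, 9 BMP genes and 16 FGF genes. A name-based rule takes in some genes outside the signalling families: Bmp1 encodes a procollagen protease, Bmp2k a protein kinase, and Fzd10os a transcript antisense to Fzd10.

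The fasting group and the ad libitum group each held 3 libraries, made from total RNA of substantia nigra. All mice were C57BL/6 and carried rAAV-A53T-aSynuclein, a recombinant adeno-associated virus (a gene-delivery vector) that brings a mutant form of alpha-synuclein, the protein of Lewy bodies, into cells. The ad libitum controls thus carried the vector too, and mice without it were not analysed here. The sources used here give neither the promoter of the vector nor the cells it reached, nor whether a library came from 1 animal or a pool. Fasting mice went without food for 24 hours on each of 3 days a week for 10 weeks, beginning 2 weeks after surgery, while ad libitum mice had food throughout and were moved between cages at the same times. How long before dissection the last fast ended was not stated in the labels.

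Wnt proteins are secreted lipid-modified ligands that bind Frizzled receptors, either stabilising beta-catenin, which acts with TCF and LEF factors on target genes, or acting on cell polarity and calcium. BMPs bind paired serine/threonine kinase receptors and act through SMAD proteins, and secreted FGFs bind tyrosine kinase receptors that activate the MAP kinase cascade. In the midbrain Wnt1, Wnt5a, Fgf8 and Fgf20 are known for their part in the making or survival of dopaminergic neurons, and BMPs for steering glial fate. Wnt1 and Fgf8 had no row in the count table, so they were not measured here.

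Levels are given as CPM, the counts of a gene per 1000000 counts of its library after TMM scaling, and fold changes are log2, fasting minus ad libitum, from the edgeR quasi-likelihood test over all genes. Library totals ran from 42990234 to 48179706 counts. The defining dopaminergic markers of the tissue were present in every library: Th was at 105, 189 and 93.7 CPM in fasting libraries 1, 2 and 3, against 86.3, 92.6 and 236 CPM in ad libitum libraries 1, 2 and 3. Of 85 markers in 16 cell type lists, 0 were called between diets. Markers of neighbouring regions differed widely between libraries: summed thalamic markers ran from 684 to 1203 CPM under fasting and from 92.3 to 1159 CPM ad libitum, cholinergic markers from 12.04 to 19.4 CPM under fasting and from 10.5 to 95.1 CPM ad libitum, and hypothalamic markers from 116 to 148 CPM under fasting and from 4.87 to 526 CPM ad libitum. In such bulk tissue, fewer cells of a type and less RNA per cell cannot be told apart.

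No member was called between diets. Of the 52 genes 51 passed the filter on low counts, and 0 of these 51 had an edgeR adjusted p below 0.05, where the share called among all 19109 tested genes was 0.497%. At an unadjusted p below 0.05 there were 10 members, 19.6% of those tested, against 20.4% of all tested genes. Of these, 3 were higher and 7 lower under fasting, where 8.74% of all tested genes were higher and 11.6% lower. The 3 fasting and 3 ad libitum values did not overlap for 8 members, which is 15.7% of the members against 27.5% of all tested genes. Of these 8, 2 were higher and 6 lower under fasting, where 12.5% of all tested genes were higher and 15.0% lower without overlap. The median log2 fold change was -0.10 over the members and -0.005 over all tested genes. There were 21 members above 0 and 30 below, where 50.9% of all tested genes were below 0. Other tools gave other counts: limma-voom, which called 0.167% of all genes, called 0 members, and DESeq2, which called 7.4% of all genes, called 5, of which Bmp3 was higher and Bmp2k, Bmp4, Bmp6 and Fgf11 were lower. Without ad libitum replicate 1 edgeR called 4 members, Wnt9b higher and Bmp4, Wnt16 and Bmp2k lower, against 6.18% of all genes in that fit. With a replicate block, where 1.49% of all genes were called, Wnt4 and Fgf11 were. In the other edgeR fits 0 members were called, against 0.44% of all genes with RLE size factors, 0.421% with no low-count filter, 0.533% with a mean count of at least 50, 0.0471% with no robust shrinkage, 0.235% when ad libitum replicate 2 was left out, 0.00521% when replicate 3 was, 0.354% without fasting replicate 2 and 0.0% without fasting replicate 1 or 3.

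**Figure D1:**
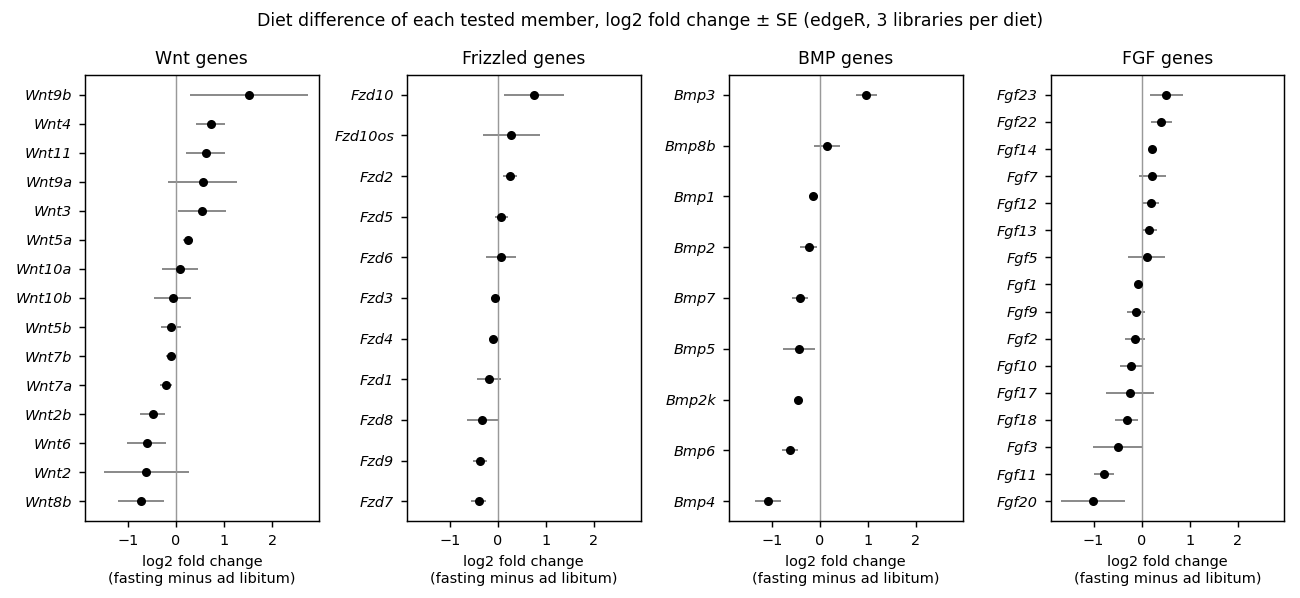
Log2 fold change (fasting minus ad libitum, x axis) of the 51 tested members by family, with points for the edgeR estimate and bars for ± 1 SE from 3 libraries per diet. Most points lie near 0. Bmp3 lies at 0.97 with an SE of 0.23, Bmp4 at -1.08 with an SE of 0.28, and Wnt9b at 1.52 with the widest bar.

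Among the BMP genes the diet groups did not overlap in 4 of 9, with 3 lower and 1 higher under fasting, where 27.5% of all tested genes did not overlap, 15.0% lower and 12.5% higher. The median log2 fold change of the family was -0.41, and 7 of its 9 genes were below 0. These 9 include the kinase gene Bmp2k and the protease gene Bmp1. Of the 7 ligands alone, 3 did not overlap, with 2 lower and 1 higher under fasting, and 5 were below 0. None of the 9 was called by edgeR, and a difference between the families was not tested.

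Bmp4 (ENSMUSG00000021835), a secreted ligand that holds back oligodendrocyte maturation, had 45, 42 and 49 counts in fasting libraries 1, 2 and 3, against 64, 113 and 128 counts in ad libitum libraries 1, 2 and 3. In CPM these were 1.02, 0.971 and 1.04 under fasting, against 1.35, 2.33 and 2.74 ad libitum. All fasting values lay close together and below every ad libitum value, and ad libitum replicate 1 was nearest to them. The log2 fold change was -1.08 (adjusted p = 0.103 by edgeR, SE 0.28), which is 0.474 of the ad libitum level. The adjusted p was 0.0223 without ad libitum replicate 1, with a log2 fold change of -1.32, and 0.0266 by DESeq2. It was 0.152 by limma-voom, 0.221 with ad libitum replicate 3 left out and 0.316 with fasting replicate 1 or 3 left out, and over all 13 alternatives it ran from 0.0223 to 0.316.

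Bmp6 (ENSMUSG00000039004), a ligand that also controls iron balance by inducing hepcidin in the liver, was at 7.69, 6.33 and 5.95 CPM under fasting, against 8.85, 9.19 and 12.5 CPM ad libitum. The groups did not overlap, with a log2 fold change of -0.61 (adjusted p = 0.114 by edgeR, SE 0.17). Bmp7 (ENSMUSG00000008999), a ligand of the same subfamily made by the meninges among other tissues, was at 7.48, 9.83 and 6.82 CPM under fasting, against 9.53, 9.91 and 12.7 CPM ad libitum. Here fasting replicate 2 lay above ad libitum replicate 1, and the log2 fold change was -0.41 (adjusted p = 0.239 by edgeR, SE 0.17).

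Bmp3 (ENSMUSG00000029335), an unusual BMP that opposes the signalling of other BMPs, had the opposite order. It had 152, 131 and 188 counts in fasting libraries 1, 2 and 3, against 67, 77 and 110 in ad libitum libraries 1, 2 and 3, or 3.46, 3.03 and 4.01 CPM under fasting, against 1.42, 1.59 and 2.35 CPM ad libitum. Every fasting library was above every ad libitum library. The log2 fold change was 0.97 (adjusted p = 0.0901 by edgeR, SE 0.23), or 1.96-fold, and over 13 alternatives its adjusted p ran from 0.00709 by DESeq2 to 0.315 without fasting replicate 3.

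Bmp2k (ENSMUSG00000034663), a kinase first found as BMP-2 inducible and active in clathrin-coated vesicle traffic, had the smallest p of all members. It was at 31.9, 31.5 and 32.3 CPM under fasting, against 40.1, 48.0 and 43.7 CPM ad libitum. The fasting libraries were nearly equal and all below the ad libitum libraries, with a log2 fold change of -0.46 (adjusted p = 0.0568 by edgeR, SE 0.07). The adjusted p was 0.000158 by DESeq2 and 0.0172 without ad libitum replicate 1. It was 0.0713 by limma-voom, 0.129 without ad libitum replicate 3, 0.253 without fasting replicate 1 and 0.290 without fasting replicate 3, so it ran from 0.000158 to 0.290 over 13 alternatives. Of its transcript sequence, cut into words of 31 bases, 11.3% also occurs in other genes, mainly AC169509.1.

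The other BMP genes overlapped between diets. Bmp2, Bmp5 and Bmp8b, all ligands, and the protease gene Bmp1 had log2 fold changes from -0.43 to 0.15 with edgeR adjusted p of at least 0.443. Per kilobase of the longest annotated transcript, the levels of the ligands were low: Bmp7 averaged 2.56 and Bmp6 2.34 CPM per kilobase over all 6 libraries, Bmp2 1.30, Bmp4 0.764, Bmp5 0.592, Bmp3 0.400 and Bmp8b 0.101. Bmp1 stood at 5.56 and Bmp2k at 5.13 on the same scale.

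**Figure D2:**
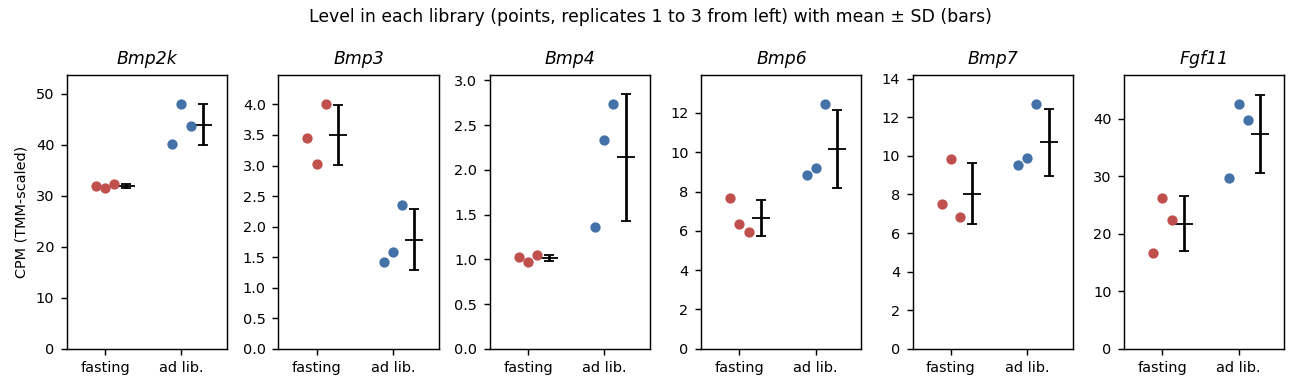
Level in CPM (y axis, from 0) of 5 BMP genes and Fgf11 in each fasting and ad libitum library, with points for replicates 1 to 3 from left to right and bars for mean ± SD over 3 libraries. The fasting points of Bmp2k lie at 31.9, 31.5 and 32.3 CPM below all ad libitum points, Bmp3 shows the opposite order, and the Bmp7 groups overlap.

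The BMP receptors and SMAD genes around these ligands were measured as a list of 13 genes. None was called by edgeR, 9 were below 0 and 4 above, and the median log2 fold change was -0.17. At an unadjusted p below 0.05 there were 6, of which 5 were lower. Among all tested genes 20.4% had such a p and 11.6% were lower with one. The higher gene of the 6 was Smad1, chosen after its values were seen. It was at 32.1, 25.1 and 25.3 CPM under fasting, against 22.9, 19.8 and 22.3 CPM ad libitum, without overlap. Its log2 fold change was 0.34 (adjusted p = 0.161 by edgeR, SE 0.11). Among all tested genes 12.5% were higher without overlap. Of 9 tested genes that BMP signalling induces, 0 were called by edgeR and 8 were below 0, with a median of -0.32. Among all tested genes 50.9% were below 0. The 4 induced genes whose diet groups did not overlap were all lower, where 27.5% of all tested genes did not overlap and 15.0% were lower without overlap. Smad6 and Smad7, inhibitory SMADs that BMPs induce as feedback, belong to both lists.

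Smad6 was at 1.39, 1.34 and 1.47 CPM under fasting, against 2.43, 2.62 and 2.35 CPM ad libitum, a log2 fold change of -0.82 (adjusted p = 0.0638 by edgeR, SE 0.15). Smad7 was at 28.04, 32.6 and 29.3 CPM under fasting, against 38.8, 39.7 and 36.7 CPM ad libitum, a log2 fold change of -0.36 (adjusted p = 0.0712 by edgeR, SE 0.07). In both genes the fasting libraries lay below all ad libitum libraries, ad libitum replicate 1 included. Atoh8, a transcription factor gene, and Id3, an inhibitor of basic helix-loop-helix factors, were the other pair without overlap, chosen after their values were seen, at -1.47 (adjusted p = 0.0781 by edgeR, SE 0.32) and -0.48 (adjusted p = 0.173 by edgeR, SE 0.16). DESeq2 called Smad6, Smad7 and Atoh8 and the receptor genes Bmpr1b and Bmpr2, all lower, but not Id3.

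Of 14 extracellular regulators of BMPs, 0 were called by edgeR, 8 were above 0 and 6 below, with a median of 0.01. Hjv, the BMP co-receptor hemojuvelin, was below 1 CPM in every library, with a log2 fold change of 0.83 (adjusted p = 0.164 by edgeR, SE 0.27).

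Markers of glia, pericytes and the meninges are given beside the BMP genes. All 6 oligodendrocyte markers and all 5 microglial markers were lower in every fasting library than in every ad libitum library, though none was called. Among all tested genes 15.0% were lower without overlap, and 27.5% did not overlap in either direction. Summed oligodendrocyte markers ran from 9434 to 11838 CPM under fasting and from 13351 to 18180 CPM ad libitum. Summed microglial markers ran from 150 to 154 CPM under fasting and from 181 to 267 CPM ad libitum. All 3 markers of oligodendrocyte precursors were below 0, with sums from 134 to 140 CPM under fasting and from 147 to 179 CPM ad libitum, and so were all 6 of pericytes, with sums from 177 to 195 CPM under fasting and from 208 to 237 CPM ad libitum. Of 8 markers of leptomeningeal fibroblasts 6 were below 0, with summed levels from 51.7 to 58.1 CPM under fasting and from 53.7 to 102 CPM ad libitum, which overlap. Of 6 astrocyte markers 5 were below 0, with sums from 2346 to 2673 CPM under fasting and from 2672 to 3593 CPM ad libitum. The ependymal markers went the other way. All 4 were above 0, though 0 were called. Their sums ran from 16.8 to 32.6 CPM under fasting and from 15.0 to 20.05 CPM ad libitum, which overlap. Foxj1 and Rarres2 overlapped between diets, while Ccdc153 and Tmem212 were higher without overlap, as were 12.5% of all tested genes. Ccdc153 was at 4.68, 0.855 and 6.78 CPM under fasting, against 0.148, 0.413 and 0.0641 CPM ad libitum. Tmem212 was at 2.16, 0.324 and 2.24 CPM under fasting, against 0.0423, 0.103 and 0.0214 CPM ad libitum. No marker of these lists was at 0 in any library, and the part of these cells in the BMP values was not tested.

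The promoters of Bmp2k and Bmp4, 2 of the members with the smallest p, are shown from the RefSeq table of build GRCm38.p6, which differs from the build of the count table. Each is the 250 bases before the annotated start. Capitals mark the hexamer GGCGCC, found in BMP-responsive elements, or the TCF/LEF core letters CTTTGAA or CTTTGAT or CTTTGTA or CTTTGTT, on either strand, and in the windows printed here no base lies in both.
Bmp2k (chr5:96997439-96997688, plus strand): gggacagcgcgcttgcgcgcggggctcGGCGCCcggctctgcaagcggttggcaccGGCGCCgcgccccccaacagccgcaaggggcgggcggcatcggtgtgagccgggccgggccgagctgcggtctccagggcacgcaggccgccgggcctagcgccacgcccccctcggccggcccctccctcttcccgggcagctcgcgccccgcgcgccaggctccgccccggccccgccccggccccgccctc
Bmp4 (chr14:46390670-46390919, minus strand): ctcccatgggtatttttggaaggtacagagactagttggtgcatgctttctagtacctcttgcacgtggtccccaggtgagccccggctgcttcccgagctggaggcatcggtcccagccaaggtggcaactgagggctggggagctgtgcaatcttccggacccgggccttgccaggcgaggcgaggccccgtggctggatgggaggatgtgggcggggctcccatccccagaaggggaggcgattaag
The hexamer occurs at 223 and 194 bases before the start of Bmp2k, and neither kind of letters is in the Bmp4 window. It was present in 11 of 46 promoters of the 37 members in the RefSeq table, 23.9%, and in 9.59% of 32851 mouse promoters of the same length. The member promoters were also richer in G and C, at a median of 65.2% against 52.4% over all promoters, and its part in that share was not tested. A match is a description of letters, not a binding site.

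None of the 15 tested Wnt genes was called by edgeR, 7 were above 0 and 8 below, and the median log2 fold change was -0.07. The groups overlapped in all but Wnt5a, which is 1 of 15, or 6.67%. Among all tested genes 27.5% did not overlap, and 12.5% were higher under fasting without overlap.

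Wnt5a (ENSMUSG00000021994), a ligand that acts mostly without beta-catenin, was at 14.0, 17.5 and 14.5 CPM under fasting, against 12.6, 12.3 and 13.8 CPM ad libitum. All fasting values were above all ad libitum values by a small margin, with a log2 fold change of 0.25 (adjusted p = 0.240 by edgeR, SE 0.10). Wnt7b, the Wnt with the highest level per kilobase, averaged 25.4 ± 2.00 CPM under fasting and 27.4 ± 3.26 CPM ad libitum (SD, n = 3 each), and 7.76 CPM per kilobase over all libraries. Wnt7a, its close relative and partner in building brain vessels, averaged 8.69 ± 1.02 CPM under fasting and 10.0 ± 1.11 CPM ad libitum, with a log2 fold change of -0.20 (adjusted p = 0.404 by edgeR, SE 0.12). Wnt2b was at -0.49 (SE 0.26) and Wnt8b, below 1 CPM in every library, at -0.74 (SE 0.48), with edgeR adjusted p of 0.352 and 0.433. The other tested Wnt genes apart from Wnt3, Wnt4, Wnt9a and Wnt9b, namely Wnt2, Wnt5b, Wnt6, Wnt7b, Wnt10a, Wnt10b and Wnt11, had log2 fold changes from -0.62 to 0.62 and edgeR adjusted p of at least 0.443.

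Wnt3, Wnt4, Wnt9a, Wnt9b and the receptor gene Fzd10 shared an order of libraries, with replicate 1 highest and replicate 2 lowest within both diets, and were picked out for it after their values were seen. Wnt9b (ENSMUSG00000018486), a ligand best known from kidney development, was at 17.3, 5.29 and 12.03 CPM in fasting libraries 1, 2 and 3, against 10.8, 0.599 and 0.641 CPM in ad libitum libraries 1, 2 and 3. Its highest library was 28.8 times its lowest, and ad libitum replicate 1 lay among the fasting libraries. Ad libitum replicates 2 and 3 had 29 and 30 counts of Wnt9b, so the order of these 2 libraries was close to a tie. The log2 fold change was 1.52 with an SE of 1.22 (edgeR adjusted p = 0.541). Without ad libitum replicate 1 it was 4.21 (edgeR adjusted p = 0.0436), and without ad libitum replicate 3 it was 1.02 (edgeR adjusted p = 0.720). Over 13 alternatives the adjusted p ran from 0.0436 to 0.806.

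Wnt3 (ENSMUSG00000000125), the protein-coding gene next to Wnt9b on chromosome 11 in the RefSeq order and a ligand of the beta-catenin branch, was at 23.3, 13.7 and 17.7 CPM under fasting, against 22.2, 6.79 and 8.70 CPM ad libitum. Wnt9a (ENSMUSG00000000126), the closest relative of Wnt9b, was at 7.53, 3.47 and 4.95 CPM under fasting, against 6.39, 0.826 and 3.65 CPM ad libitum. Wnt4 (ENSMUSG00000036856) was at 11.6, 5.92 and 8.89 CPM under fasting, against 6.80, 3.68 and 5.60 CPM ad libitum. In each of these genes replicate 2 was the lowest and replicate 1 the highest within both diets, and ad libitum replicate 2 was the lowest of all 6 libraries. Their log2 fold changes were 0.54 (SE 0.50), 0.55 (SE 0.71) and 0.72 (SE 0.31), with edgeR adjusted p of 0.597, 0.704 and 0.264. Without ad libitum replicate 2 they were 0.23, 0.07 and 0.50. The same order of libraries within both diets held for 6 of 51 members, the other pair being Fzd10 and Fzd6, and for 6.58% of all tested genes. Fzd6 was highest in ad libitum replicate 1, at 19.9 CPM against 15.0 CPM in fasting replicate 1. Its log2 fold change was 0.06 (adjusted p = 0.932 by edgeR, SE 0.32).

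The biological coefficient of variation was 0.977 for Wnt9b, 0.597 for Wnt9a and 0.420 for Wnt3, which lay at percentiles 99.6, 97.8 and 98.3 among genes within a factor of 2 of their mean level. It was 0.278 for Wnt4, at percentile 92.7. Wnt2, which did not have that library order, had 0.706, at percentile 97.3, its highest library, ad libitum replicate 2 at 1.61 CPM, being 9.51 times its lowest. It exceeded the 95th percentile of such genes in 7 members, Wnt2, Wnt3, Wnt9a, Wnt9b, Fzd6, Fzd10 and Fzd10os.

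**Figure D3:**
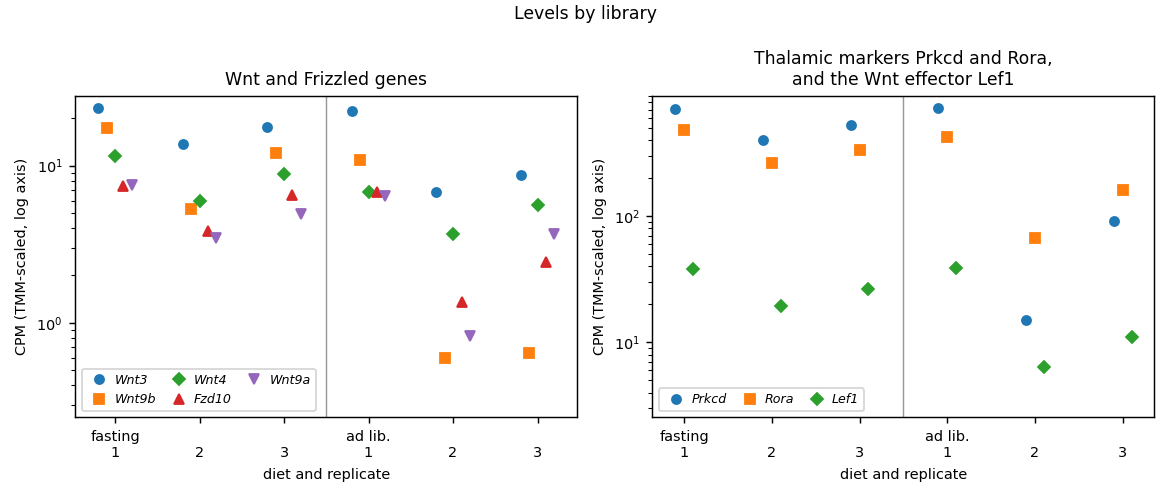
Levels in CPM on a log axis (y) by diet and replicate (x) for 4 Wnt genes and Fzd10 (left), and for the thalamic markers Prkcd and Rora with the Wnt effector Lef1 (right), 1 point per gene and library. Ad libitum replicate 1 lies with the fasting libraries in most of these genes, and ad libitum replicate 2 is lowest in all of them, at 0.599 CPM for Wnt9b and 15.2 CPM for Prkcd.

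Some thalamic markers varied with these genes. Prkcd, a protein kinase C gene abundant in thalamic relay neurons, was at 702, 405 and 527 CPM under fasting, against 714, 15.2 and 92.2 CPM ad libitum. Rora, a nuclear receptor of the same neurons, was at 486, 266 and 337 CPM under fasting, against 426, 67.7 and 162 CPM ad libitum. Both had the library order of Wnt3 and Wnt9b, as did the sum of all 4 thalamic markers, while Gbx2 and Lhx2 did not; Gbx2 was highest in ad libitum replicate 3 at 14.1 CPM and Lhx2 was lower in every fasting library. The part of thalamic tissue in the Wnt values was not tested.

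Lef1, a nuclear effector of Wnt signalling that thalamic neurons also express, followed the same order, at 38.0, 19.6 and 26.5 CPM under fasting, against 38.7, 6.44 and 11.05 CPM ad libitum. Its log2 fold change was 0.58 with an SE of 0.71 (edgeR adjusted p = 0.692). Tcf7l2, the related effector, was at 198, 129 and 127 CPM under fasting, against 216, 14.2 and 202 CPM ad libitum, with ad libitum replicate 2 far below the rest. Axin2, a general feedback target of beta-catenin, was steadier, at 24.9, 17.2 and 20.8 CPM under fasting, against 17.6, 15.3 and 18.8 CPM ad libitum, with a log2 fold change of 0.28 (adjusted p = 0.325 by edgeR, SE 0.14). Lef1, Tcf7l2 and Axin2 were chosen after their values were seen.

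The promoters of Wnt3, Wnt4, Wnt9a, Wnt9b and Fzd10 are shown because these members share an order of libraries. Fzd6, which also has that order, is not shown. They are the 250 bases before the RefSeq start on GRCm38.p6, with capitals as above.
Wnt9b (chr11:103749822-103750071, minus strand): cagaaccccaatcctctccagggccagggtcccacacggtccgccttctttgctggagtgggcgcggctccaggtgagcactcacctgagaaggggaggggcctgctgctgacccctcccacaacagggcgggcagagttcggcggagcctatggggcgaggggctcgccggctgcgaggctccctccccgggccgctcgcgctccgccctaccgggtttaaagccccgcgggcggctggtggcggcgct
Wnt3 (chr11:103773925-103774174, plus strand): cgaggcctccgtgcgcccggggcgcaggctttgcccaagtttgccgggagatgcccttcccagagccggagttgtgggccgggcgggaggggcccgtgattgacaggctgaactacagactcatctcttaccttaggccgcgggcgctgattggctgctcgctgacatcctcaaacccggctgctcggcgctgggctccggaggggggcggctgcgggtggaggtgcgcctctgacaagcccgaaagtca
Wnt4 (chr4:137277385-137277634, plus strand): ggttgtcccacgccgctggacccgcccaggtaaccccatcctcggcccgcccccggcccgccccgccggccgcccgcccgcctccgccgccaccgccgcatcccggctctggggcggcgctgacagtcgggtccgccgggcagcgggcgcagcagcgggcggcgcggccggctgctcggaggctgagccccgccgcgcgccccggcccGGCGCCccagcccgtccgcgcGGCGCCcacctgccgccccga
Wnt9a (chr11:59306680-59306929, plus strand): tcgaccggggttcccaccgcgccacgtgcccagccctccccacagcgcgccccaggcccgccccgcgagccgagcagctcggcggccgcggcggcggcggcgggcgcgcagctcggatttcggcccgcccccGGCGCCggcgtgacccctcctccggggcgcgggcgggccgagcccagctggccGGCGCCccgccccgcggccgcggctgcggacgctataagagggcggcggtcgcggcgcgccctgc
Fzd10 (chr5:128600856-128601105, plus strand): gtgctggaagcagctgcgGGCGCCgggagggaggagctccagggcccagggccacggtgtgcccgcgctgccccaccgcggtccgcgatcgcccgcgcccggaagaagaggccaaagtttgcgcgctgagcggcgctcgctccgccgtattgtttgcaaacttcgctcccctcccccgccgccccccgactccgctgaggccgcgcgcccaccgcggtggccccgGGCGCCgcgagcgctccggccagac
The TCF/LEF letters are in none of these 5 windows, and they were found in 6 of 46 member promoters, 13.0%, against 14.8% of all promoters. GGCGCC occurs in the windows of Wnt4, Wnt9a and Fzd10 and not in those of Wnt3 and Wnt9b.

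Wnt16, a ligand known from bone, was the member left out by the low-count filter. It had 6, 9 and 8 counts in fasting libraries 1, 2 and 3, against 7, 42 and 40 counts in ad libitum libraries 1, 2 and 3. Ad libitum replicates 2 and 3 were high and ad libitum replicate 1 was at the level of the fasting libraries. When no filter was applied its log2 fold change was -1.85 (edgeR adjusted p = 0.187), and without ad libitum replicate 1, where it passed the filter, it was -2.31 (edgeR adjusted p = 0.0217). Without fasting replicate 1 the adjusted p was 0.450.

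**Figure D4:**
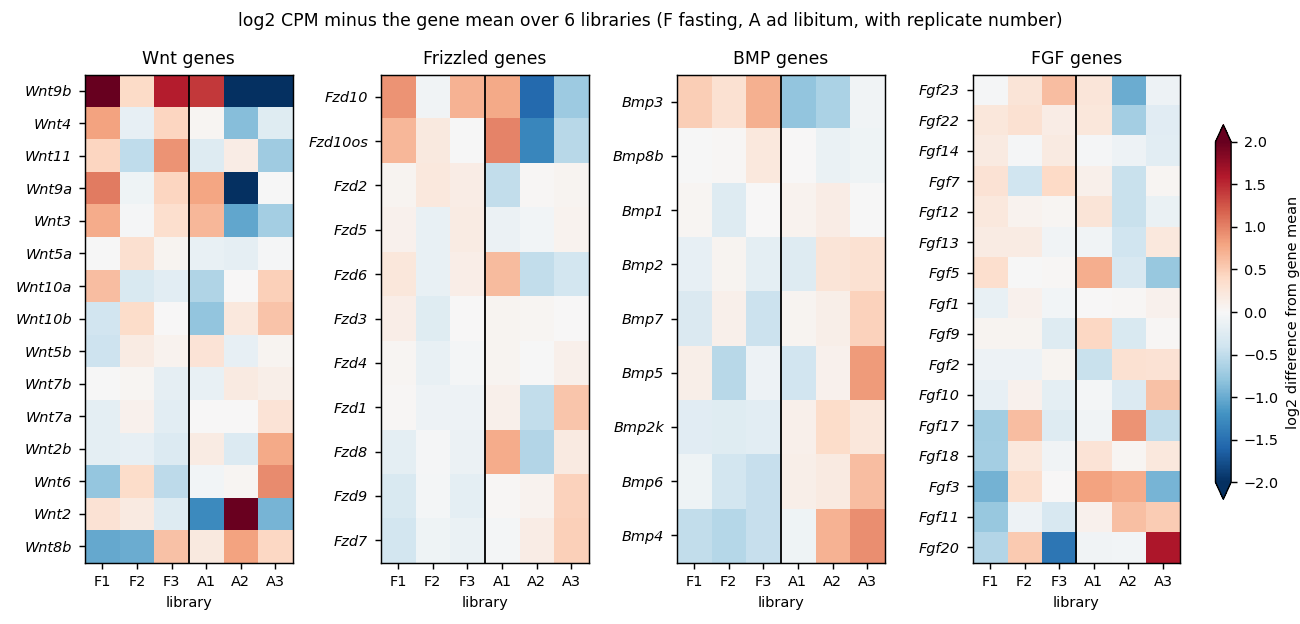
Log2 CPM of the 51 tested members minus each gene's mean over 6 libraries (colour, clipped at ± 2), with fasting libraries F1 to F3 left of ad libitum libraries A1 to A3. The columns of ad libitum replicate 2 are darkest blue for Wnt9b, Wnt9a and Fzd10, whose lowest values were 0.599, 0.826 and 1.36 CPM, and the BMP rows Bmp2k, Bmp4 and Bmp6 are paler or blue under fasting.

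None of the 11 Frizzled genes was called between diets by edgeR, and the median log2 fold change was -0.05. Fzd7 and Fzd9, both lower under fasting, were the pair whose groups did not overlap, 18.2% of the family. Among all tested genes 27.5% did not overlap, and 15.0% were lower without overlap. Fzd7 (ENSMUSG00000041075) was at 8.12, 9.87 and 9.60 CPM under fasting, against 10.2, 11.6 and 14.6 CPM ad libitum, a log2 fold change of -0.40 (adjusted p = 0.200 by edgeR, SE 0.15). Fzd9 (ENSMUSG00000049551), a receptor with a part in hippocampal development, was at 5.64, 6.77 and 6.08 CPM under fasting, against 7.07, 7.31 and 9.57 CPM ad libitum, a log2 fold change of -0.37 (adjusted p = 0.217 by edgeR, SE 0.15). In both, ad libitum replicate 3 was the highest library and the gap between the diets was narrow.

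The promoter of Fzd7 holds the TCF/LEF letters 130 bases before its start and is shown for that match, again from RefSeq on GRCm38.p6.
Fzd7 (chr1:59481897-59482146, plus strand): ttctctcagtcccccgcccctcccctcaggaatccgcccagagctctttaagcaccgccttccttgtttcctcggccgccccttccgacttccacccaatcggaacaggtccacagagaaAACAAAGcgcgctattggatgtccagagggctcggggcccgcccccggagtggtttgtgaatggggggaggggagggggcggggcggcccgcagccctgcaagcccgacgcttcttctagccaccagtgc

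Fzd4 (ENSMUSG00000049791), the receptor through which norrin and Wnt7 ligands act on brain vessels, was steady at 16.8, 14.6 and 15.8 CPM under fasting, against 17.0, 16.3 and 17.4 CPM ad libitum, with a log2 fold change of -0.10 (adjusted p = 0.484 by edgeR, SE 0.07). Fzd3, a receptor of planar polarity and axon guidance, had the highest level of the family per kilobase, 6.56 CPM per kilobase over all libraries, and averaged 81.9 ± 10.7 CPM under fasting and 85.1 ± 1.28 CPM ad libitum (SD, n = 3 each). Fzd2 was at 0.26 (adjusted p = 0.381 by edgeR, SE 0.15).

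Fzd10 (ENSMUSG00000081683) was at 7.46, 3.81 and 6.48 CPM under fasting, against 6.80, 1.36 and 2.44 CPM ad libitum, the library order of Wnt3 and Wnt9b. Its log2 fold change was 0.75 (adjusted p = 0.552 by edgeR, SE 0.62), and 1.64 without ad libitum replicate 1 and 0.35 without ad libitum replicate 2. The antisense gene Fzd10os was at 5.03, 3.63 and 3.13 CPM under fasting, against 6.31, 1.28 and 2.14 CPM ad libitum, also lowest in ad libitum replicate 2. The strand setting of the counting was not stated, so reads of any overlap of the pair cannot be told apart. The remaining receptors, Fzd1, Fzd3, Fzd5, Fzd6 and Fzd8, and Fzd10os had log2 fold changes from -0.32 to 0.28 and edgeR adjusted p of at least 0.615.

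Around the ligands and receptors of the Wnt pathway, 0 tested genes of 3 lists were called by edgeR. Over the 8 pathway lists for Wnt, BMP and FGF signalling together, 26 of 113 tested genes, 23.0%, had an unadjusted p below 0.05, close to the 20.4% of all tested genes. Of these 26, 8 were higher and 18 lower under fasting, where 8.74% of all tested genes were higher and 11.6% lower. DESeq2 called 13 pathway genes and 7.4% of all genes, and limma-voom called 0 pathway genes and 0.167% of all genes. Of 9 co-receptors and alternative receptors 6 were below 0 (median -0.12), of 22 secretion and extracellular genes 14 were below 0 (median -0.12), and of 24 intracellular genes and targets 19 were above 0 (median 0.08). Ryk, a receptor-like kinase that binds Wnts, was at 25.7, 26.5 and 25.9 CPM under fasting, against 31.04, 31.9 and 31.5 CPM ad libitum, a log2 fold change of -0.27 (adjusted p = 0.0663 by edgeR, SE 0.05). Dkk2, a secreted modulator of the LRP co-receptors, was at 1.09, 1.36 and 0.960 CPM under fasting, against 0.106, 0.372 and 0.406 CPM ad libitum, a log2 fold change of 1.94 (adjusted p = 0.0830 by edgeR, SE 0.44). Celsr3, an adhesion receptor of planar polarity and axon tracts, was at 110, 116 and 122 CPM under fasting, against 92.9, 95.8 and 94.7 CPM ad libitum, with a log2 fold change of 0.30 (adjusted p = 0.0685 by edgeR, SE 0.06). In these 3 genes the diets did not overlap, as in 27.5% of all tested genes, and DESeq2 called each of them. The co-receptor Lrp6 was at -0.20, the ligase Znrf3, which removes Frizzled receptors from the surface, at 0.21, and Celsr2 at 0.18, with edgeR adjusted p from 0.148 to 0.193.

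FGF genes fall into intracellular members, which bind sodium channels rather than receptors, and secreted ligands. None of 16 was called by edgeR, 7 were above 0 and 9 below, and the median log2 fold change was -0.09. Fgf11 was the member of the family whose diet groups did not overlap, which is 6.25% of the family. Among all tested genes 27.5% did not overlap, and 15.0% were lower under fasting without overlap.

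Fgf11 (ENSMUSG00000042826), an intracellular FGF of neurons, was at 16.7, 26.1 and 22.4 CPM under fasting, against 29.7, 42.6 and 39.7 CPM ad libitum. Every fasting library was below every ad libitum library, by a margin of 26.1 against 29.7 CPM at the nearest. The log2 fold change was -0.78 (adjusted p = 0.115 by edgeR, SE 0.20), or 0.582 of the ad libitum level, and over 13 alternatives the adjusted p ran from 0.00312 by DESeq2 to 0.332 without fasting replicate 3. The estimates of its intracellular relatives lay above 0, a difference from Fgf11 that was not tested: Fgf12, Fgf13 and Fgf14 had log2 fold changes of 0.19, 0.16 and 0.22, with edgeR adjusted p of 0.587, 0.621 and 0.185. Fgf14, a modulator of sodium channels at the axon initial segment, was at 40.5, 35.3 and 40.6 CPM under fasting, against 35.4, 33.3 and 31.03 CPM ad libitum, with fasting replicate 2 just below ad libitum replicate 1.

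The intracellular FGFs and Fgf1 held the highest levels of all members per kilobase of the longest annotated transcript. Over 6 libraries Fgf13 averaged 46.7, Fgf12 42.3 and Fgf1 38.3 CPM per kilobase, followed by Fgf14 at 9.99 and Fgf11 at 9.71. Fgf12, Fgf13 and Fgf14 have several isoforms, so these 3 values depend on the transcript length used. Fgf1, the acidic FGF, which lacks a signal peptide, averaged 149 ± 12.9 CPM under fasting and 156 ± 4.84 CPM ad libitum (SD, n = 3 each).

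Among the other secreted FGFs, Fgf22, a presynaptic organiser, was at 6.12, 6.45 and 5.82 CPM under fasting, against 6.12, 3.26 and 4.47 CPM ad libitum, a log2 fold change of 0.41 (adjusted p = 0.349 by edgeR, SE 0.22). Fgf20, a ligand with survival effects on dopaminergic neurons, was at 0.387, 0.832 and 0.213 CPM under fasting, against 0.550, 0.558 and 1.77 CPM ad libitum. It was highest in ad libitum replicate 3, the library with the highest Th, and its log2 fold change was -1.01 (adjusted p = 0.443 by edgeR, SE 0.66). Fgf23, a hormone of phosphate balance, was at 0.51 (adjusted p = 0.456 by edgeR, SE 0.35). The remaining 11 FGF genes, Fgf12, Fgf13 and Fgf1 included, had log2 fold changes from -0.50 to 0.22 and edgeR adjusted p of at least 0.496.

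FGF receptors and the genes that answer to them were measured as lists of 12 and 13 genes, with 0 called by edgeR in each, 9 and 10 below 0, and medians of -0.22 and -0.07. Fgfr2, a receptor abundant in oligodendrocytes, was at 63.6, 79.6 and 62.0 CPM under fasting, against 110, 130 and 105 CPM ad libitum, a log2 fold change of -0.75 (adjusted p = 0.0599 by edgeR, SE 0.12). Fgfrl1, a receptor without a kinase domain, was at 6.94, 8.37 and 8.34 CPM under fasting, against 13.4, 13.2 and 11.5 CPM ad libitum, a log2 fold change of -0.68 (adjusted p = 0.0568 by edgeR, SE 0.11). Fgfr3, a receptor abundant in astrocytes, chosen after its values were seen, was at 219, 214 and 213 CPM under fasting, against 171, 166 and 198 CPM ad libitum, a log2 fold change of 0.27 (adjusted p = 0.120 by edgeR, SE 0.08). In each of these 3 receptor genes the diets did not overlap, with Fgfr3 higher and the others lower, and DESeq2 called each. Among all tested genes 27.5% did not overlap, and DESeq2 called 7.4% of all genes.

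The transcription factor Etv5 and the inhibitor Spry2, both induced by FGF signalling, were also below every ad libitum library under fasting. Etv5 was at 48.7, 50.2 and 47.7 CPM under fasting, against 64.1, 57.1 and 62.1 CPM ad libitum, a log2 fold change of -0.32 (adjusted p = 0.0663 by edgeR, SE 0.06). Spry2 was at 20.9, 23.2 and 21.1 CPM under fasting, against 25.5, 27.9 and 27.1 CPM ad libitum, a log2 fold change of -0.30 (adjusted p = 0.0853 by edgeR, SE 0.07). Neither was called by edgeR and both were called by DESeq2, which called 7.4% of all genes. In their list of 13 genes 4 did not overlap between diets, all lower. Among all tested genes 27.5% did not overlap and 15.0% were lower without overlap. Dusp6, Spry4, Etv4, Il17rd and Etv1 of the same list, chosen after their values were seen, overlapped between diets. Their log2 fold changes were 0.22, 0.003, -0.04, -0.01 and -0.07. The oligodendrocyte markers, lower in the same libraries, had the values given above. Their part in the FGF receptor and target values was not tested.

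**Figure D5:**
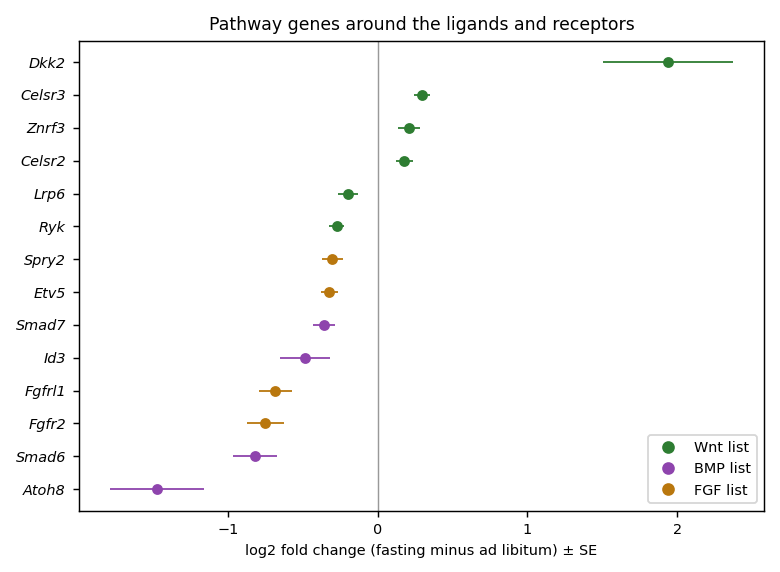
Log2 fold change (fasting minus ad libitum, x axis) ± SE from 3 libraries per diet for 14 pathway genes outside the BMP extracellular list, coloured by the Wnt, BMP or FGF list. Dkk2 lies highest at 1.94 and Atoh8 lowest at -1.47, the FGF genes shown lie between -0.75 and -0.30, and no gene shown was called by edgeR.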

How the data were processed

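Per the labels' protocols, substantia nigra RNA came from an RNeasy lipid tissue kit and libraries from a directional NEBNext kit. Estimated counts per gene, as whole numbers not scaled between libraries, were deposited as 1 table, so rounding changed none. Library totals ran from 42990234 to 48179706. Salmon, DESeq2 1.40.2 and the build GRCm39 are named in the submitters' processing notes, without roles; the annotation and strand setting were not given in the sources used here. There were 0 unused columns of per-sample values, and every row had a gene name.

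Genes were kept by filterByExpr in edgeR 4.0.16 (R 4.3.3), which left 19109 of 19251, scaled by TMM and compared between diets with the two-sided robust quasi-likelihood test, 3 libraries against 3, with Benjamini-Hochberg adjustment over all tested genes. Called genes are those with adjusted p under 0.05. SEs are the size of the log2 fold change over the square root of F. Alternatives were DESeq2 1.42.0, limma-voom 3.58.1, other scaling, filters and shrinkage, a replicate block, and leaving out each library. On simulated data with known answers the fit recovered large changes better than small ones, and more of its calls were false than the threshold allows for. Labels do not say that libraries came from separate animals, so p-values measure the spread between these samples.

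Members and lists were chosen with earlier results of these data known. Named were the 5 members of smallest p in each family and, from each of 8 pathway lists, the 2 genes of smallest p, of which 1 is not reported here; other genes named were chosen after their values were seen. Transcript lengths and words of 31 bases came from GENCODE M21 (GRCm38), where 15 members share exon sequence positions with a gene on the opposite strand, Bmp2k, Bmp4, Bmp6, Fgf14, Fgf20, Fgf22 and Wnt5a among them, and 3 members (Bmp2k, Bmp8b and Wnt4) share over 5% of their words with other genes.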

Additional observations from a re-analysis of the deposited data

How the results depend on the processing

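No member and no pathway gene was called by edgeR with all libraries, nor with limma-voom, with RLE size factors, without the low-count filter, with a mean count of at least 50 or without robust shrinkage. DESeq2 called 5 members and 13 pathway genes, where it called 7.4% of all genes. With the replicate number as a block 2 members, Wnt4 and Fgf11, and 1 pathway gene, Fgfr2, were called, while calls over all genes went to 1.49%. Deviations of same-numbered libraries from their group means correlated at 0.21, -0.04 and -0.11, and not every library correlated best with its own number. With 3 libraries per diet these values cannot settle whether the numbers pair the samples. Leaving out single libraries gave from 0 to 4 members and from 0 to 17 pathway genes, the highest counts being those without ad libitum replicate 1. These fits called from 0.0% to 6.18% of all genes, the highest share also being that without ad libitum replicate 1. The median log2 fold change of the members ran from -0.15 to -0.07 over these fits. Of 476 values of 37 named genes under 13 alternatives, 0 reversed direction and 29 passed the threshold that the main values miss. There were 11 members that averaged below 1 CPM; how far depth set their spread was not tested. The cause of the differences between tools was not tested.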
